A study of Mus musculus with 22 samples.

Results

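The 45 mouse genes described here encode developmental transcription factors of 6 DNA-binding families, taken by name from a fixed list: 12 forkhead, 10 Sox, 8 T-box, 3 GATA, 4 Zic and 8 basic helix-loop-helix (bHLH) genes, of 21887 protein-coding genes in the mm10 RefSeq table. All 45 were found in the table, and none was removed for low values. Zic1 and Zic4, and likewise Zic2 and Zic5, lie side by side and often share 1 peak, so each such pair is not independent. A gene was counted as having a peak when a called peak lay within 1 kb of either gene end, and each of the 16 deposited peak lists was read this way. The score of a gene is that of its strongest such peak, on the −log10 scale of the peak caller, which reports peaks from a score of 10 upward.

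The series measured by ChIP-seq where PCGF6, RING1B, H2AK119ub1 (the ubiquitinated form of histone H2A), CTCF and RAD21 lay in crypts of mouse small intestine with Pcgf6 deleted. Pcgf6 KO and WT crypts of the AhCre line were profiled for PCGF6, RING1B and H2AK119ub1, and Pcgf6 KO and WT crypts of the Villin line for RING1B, H2AK119ub1, CTCF and RAD21. WT E14 embryonic stem cells (ESC) were profiled for PCGF6 and RING1B. Each antibody, line and genotype had 1 library, so no difference between groups has a replicate check, and none was tested.

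The tissue is labelled as small intestinal crypt epithelium of C57BL/6 mice, fixed in formaldehyde; C57BL/6 is also given for the E14 cells. The AhCre transgene is driven by a xenobiotic-inducible promoter and recombines after β-naphthoflavone, whereas the Villin-driven Cre is confined to intestinal epithelium and was induced with tamoxifen. The design text gives male mice of 8 to 12 weeks, taken 7 days after induction, but writes this of the RNA samples, and whether it holds for the chromatin is not stated. H2AK119ub1 chromatin carried a spike of 5% Drosophila S2 chromatin, which the peak scores do not use as far as the sources given here state. Nor do the labels say which Pcgf6 allele was deleted, whether WT crypts carried Cre, how many mice were pooled or what share of crypt cells had recombined. In the labels of the ESC libraries, 1 description line exchanges PCGF6 and RING1B, and the titles and antibody entries were followed here.

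Polycomb repressive complex 1 places ubiquitin on H2A through its catalytic subunit RING1B, and a PCGF protein in each complex decides which partners join it. PCGF6 belongs to a variant complex that also holds MGA and MAX, which bind E-box and T-box sequences, and E2F6. Genes for lineage regulators such as Sox, forkhead and T-box factors are classic Polycomb targets: their CpG-rich promoters carry RING1B in stem cells and stay covered in adult tissues where the factor is silent. In the gut epithelium, a few of these families' members are normally active, among them the endodermal regulators Foxa1, Foxa2 and Gata5.

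Promoter sequences from RefSeq (GRCm38.p6) were on hand for 30 of the 45 genes, in 34 windows of 300 bases. The bases shown are the 250 before the start, written 5′ to 3′ along the gene. Foxa2 (chr2:148046970-148047219, minus strand), Gata5 (chr2:180334680-180334929, minus strand) and Sox21 (chr14:118237031-118237280, minus strand) are shown because theirs were the 3 windows with a PCGF6 peak in WT crypts. Foxd3 (chr4:99656049-99656298, plus strand) is shown as a RING1B target in crypts that had PCGF6 in ESC only, and Neurog1 (chr13:56252181-56252430, minus strand) as a gene with H2AK119ub1 in AhCre KO crypts and in no other crypt list. Capitals mark the E-box CACGTG and the E2F core TCCCGC on either strand.
Foxa2: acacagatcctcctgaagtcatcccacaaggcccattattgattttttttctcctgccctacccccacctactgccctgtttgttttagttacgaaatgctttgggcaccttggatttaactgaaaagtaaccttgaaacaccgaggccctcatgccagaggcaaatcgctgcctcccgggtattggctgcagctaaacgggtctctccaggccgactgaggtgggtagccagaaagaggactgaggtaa
Gata5: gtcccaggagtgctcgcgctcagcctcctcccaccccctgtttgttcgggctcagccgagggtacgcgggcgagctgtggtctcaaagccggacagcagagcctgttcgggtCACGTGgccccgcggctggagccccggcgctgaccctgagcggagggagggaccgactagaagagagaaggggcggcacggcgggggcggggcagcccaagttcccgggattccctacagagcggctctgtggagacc
Sox21: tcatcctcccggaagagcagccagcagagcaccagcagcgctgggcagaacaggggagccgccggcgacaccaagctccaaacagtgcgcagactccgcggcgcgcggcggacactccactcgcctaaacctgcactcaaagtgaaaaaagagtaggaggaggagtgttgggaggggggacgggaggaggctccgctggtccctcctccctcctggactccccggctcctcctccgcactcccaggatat
Foxd3: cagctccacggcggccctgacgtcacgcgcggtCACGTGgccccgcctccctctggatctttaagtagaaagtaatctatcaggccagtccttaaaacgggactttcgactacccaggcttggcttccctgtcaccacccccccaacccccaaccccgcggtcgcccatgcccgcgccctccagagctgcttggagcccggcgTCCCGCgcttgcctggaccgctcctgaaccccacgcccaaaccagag
Neurog1: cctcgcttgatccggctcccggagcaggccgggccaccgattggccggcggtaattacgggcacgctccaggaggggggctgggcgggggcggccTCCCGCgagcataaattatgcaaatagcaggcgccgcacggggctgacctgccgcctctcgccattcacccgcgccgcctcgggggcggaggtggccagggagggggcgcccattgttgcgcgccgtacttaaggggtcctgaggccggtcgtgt
The E-box stood in 4 of the 34 member windows (11.8%), against 7.15% of all 32851 windows. The E2F core stood in 10 (29.4%), against 20%. Of all windows with a PCGF6 peak in AhCre WT crypts, 13.4% held the E-box and 38.1% the E2F core. Of those with a RING1B peak in AhCre WT crypts, 11.1% held the E-box and 43% the E2F core. The T-box motif AGGTGTGA was in none of the 34 windows and in 1.28% of all windows. Gata5 and Foxd3 shared a run of 16 bases around the E-box, ggtCACGTGgccccgc. Of the other 2 promoters with a PCGF6 peak in WT crypts, Foxa2 held none of these letters in the 300-base window that had the peak, and neither did Sox21. The median ratio of observed to expected CpG was 0.75 in the member windows and 0.38 in all windows. It was 0.80 in all windows with PCGF6 and 0.78 in those with RING1B in AhCre WT crypts.

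Pcgf6 itself had no PCGF6 peak in AhCre KO crypts, against a score of 20.8 in AhCre WT crypts. At Mga, whose product is the DNA-binding partner of PCGF6, the PCGF6 score was 325 in KO and 1180 in WT crypts. The lists held 1662 to 32651 peaks, and read depth is not known from them. Of 6 intestinal epithelial genes checked as markers, none had H2AK119ub1 in any crypt list, and RING1B was found at Cdx2 and Vil1 in Villin KO crypts and at Cdx2 in Villin WT crypts. Of 4 mesenchymal markers, Pdgfra and Vim had RING1B in all 4 crypt lists and the other 2 in none. No pair of lists had over 1 peak with the same coordinates.

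Across the lists, a larger share of the members than of all genes had RING1B and H2AK119ub1, and in crypts a smaller share had PCGF6. RING1B was at 34 members in AhCre KO crypts (4.89% of all genes had a peak) and at 34 in AhCre WT crypts (7.74%), at 34 in Villin KO crypts (7.61%) and 37 in Villin WT crypts (14.2%). H2AK119ub1 was at 41 members in AhCre KO crypts (17.7% of all genes) and 37 in AhCre WT crypts (16%), and at 34 in Villin KO crypts (8.85%) and 35 in Villin WT crypts (10.4%). PCGF6, in contrast, was at 1 member in KO crypts (13.7% of all genes) and 9 in WT crypts (39.9%), but at 33 members in ESC (22.7%). RING1B was at the most members in ESC, 42 of 45 (17.8% of all genes).

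CTCF and RAD21 were near about as large a share of the members as of all genes, or a smaller one. CTCF was near 8 members in Villin KO crypts (23.2% of all genes) and 12 in Villin WT crypts (25.5%), and RAD21 near 5 in Villin KO crypts (14%) and 8 in Villin WT crypts (22.2%). As shares of the 45 members, CTCF reached 17.8% in KO and 26.7% in WT crypts, and RAD21 11.1% in KO and 17.8% in WT crypts. The map of scores by gene and list shows the blocks of RING1B and H2AK119ub1 running through each of the 6 families.

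**Figure D1:**
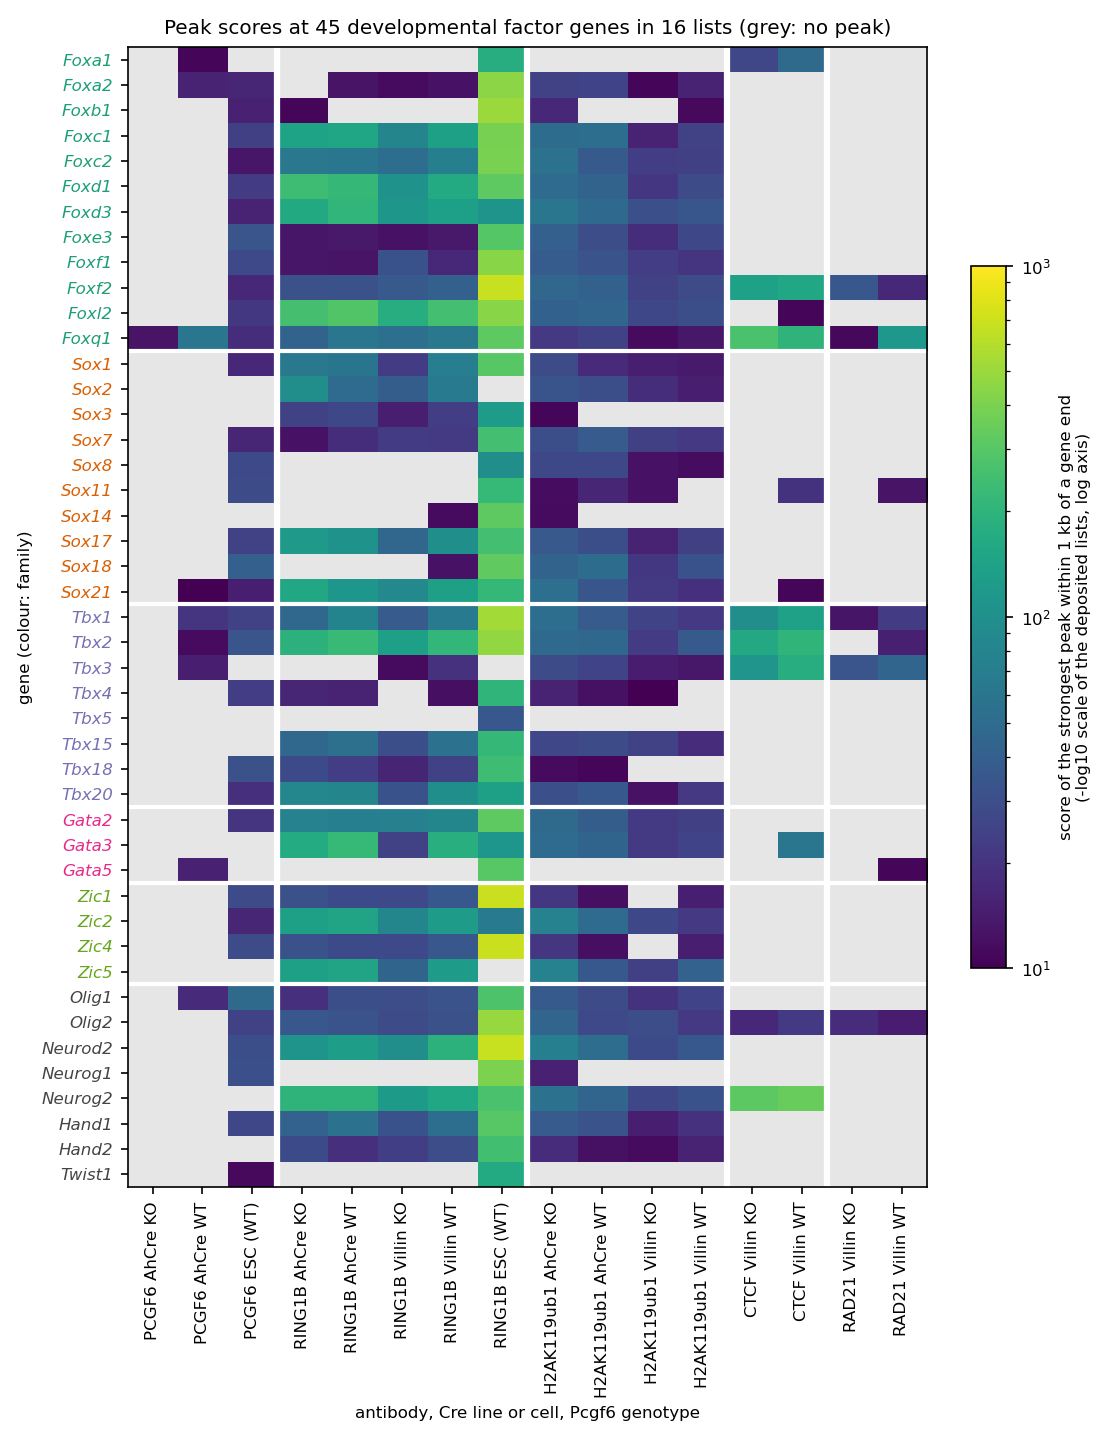
Heat map of the score of the strongest peak within 1 kb of either end of each of the 45 genes (rows, gene names coloured by family) in the 16 lists (columns, by antibody, Cre line or cell and Pcgf6 genotype), on a log colour scale with grey for no peak. RING1B and H2AK119ub1 columns are filled for 34 to 42 genes, the PCGF6 AhCre KO column for 1 and the PCGF6 AhCre WT column for 9.

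PCGF6 in AhCre crypts was found at Foxq1 alone in the KO list, and at Foxq1, Foxa1, Foxa2, Sox21, Tbx1, Tbx2, Tbx3, Gata5 and Olig1 in the WT list. Foxq1, a forkhead factor of gastric mucous cells, had a score of 12.7 in KO crypts and 61.3 in WT crypts, and its peak narrowed to 561 bp in KO crypts, against 3066 bp in WT crypts. Every other WT peak at the members was weak: the 8 lost scores were 10.1 at Sox21, 10.7 at Foxa1, 11.49 at Tbx2, 14.8 at Tbx3, 15.2 at Gata5, 15.8 at Foxa2, 17.7 at Olig1 and 19.8 at Tbx1. That is 8 of 9 members losing the peak, with 64.4% lost among all genes with a WT peak; none of the other 36 members gained one (0.152% of all genes without a WT peak did).

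Weak peaks were lost at most genes, members or not. Of all genes with a WT score from 10 to below 20, 91.5% of 4036 lost the PCGF6 peak, and of those at 50 or more, 7.1% of 1296 did. The 8 lost members all lay in the weakest range and Foxq1 in the strongest, so the members' count is read against 91.5%. Within 10 kb of the genes, PCGF6 peaks covered 1050 bp in KO crypts and 31711 bp in WT crypts over the 45 members. That is 3.31% of the WT length, against 19.8% for the lists as a whole, not matched for score. Foxa1 had none of it in KO crypts and 4474 bp in 4 peaks, the most of any member, in WT crypts. Its window peak is shared with the neighbouring gene Ttc6.

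RING1B in AhCre crypts stayed at 33 of the 34 members that had it in WT crypts. The exception was Foxa2, a pioneer factor of endoderm, with a weak WT score of 12.8 and the nearest KO peak 2300 bp from the gene. Among all genes with a WT peak, 44.7% lost it. Foxb1, a forebrain forkhead gene, gained a peak with a score of 10.7 in KO crypts (0.782% of all genes without a WT peak gained one). Within bands of WT score, 1 of 6 members with a WT score from 10 to below 20 lost it, against 65% of 1058 genes, and 0 of 7 members from 20 to below 50 did, against 16.9% of 397 genes. Of the strongest genes, at 50 or more, 0 of 21 members and 0.84% of 238 genes lost the peak. These 33 members kept a median score of 62.8 in KO crypts and 61.3 in WT crypts, with a median log2 ratio of KO over WT of -0.01, against -0.32 over all 906 genes with a peak in both lists.

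The KO score was the higher at 15 of those 33 members, against 23.2% of all genes with RING1B in both lists. Sox2, a regulator of pluripotent and neural progenitor cells, stood out with 97.3 in AhCre KO crypts and 50.03 in AhCre WT crypts, a log2 ratio of 0.96 at percentile 98.8 of the 906 genes. Hand2, a heart and limb bHLH factor, had 28.3 in KO and 19.1 in WT crypts, and Sox21, a neural Sox factor, 159 in KO and 113 in WT crypts. In the other direction, Tbx1, the pharyngeal T-box factor, had 47.0 in KO and 79.9 in WT crypts, and Olig1, of the oligodendrocyte lineage, 18.6 in KO and 30.1 in WT crypts. The deposited scores carry no common scale, so a ratio also holds any difference in depth, and a mark in fewer cells cannot be told apart from less of it in each cell.

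RING1B in Villin crypts was lost at 3 of 37 members: Sox14, a neural Sox factor (WT score 11.4), Tbx4, the hindlimb T-box factor (12.0), and Sox18, an endothelial Sox factor (12.5). The loss among all genes with a WT peak was 53.7%, and no member gained a peak (1.31% of all genes without a WT peak did). By starting strength, 3 of 7 members with a WT score from 10 to below 20 lost RING1B, against 69% of 2166 genes, and 0 of 9 members from 20 to below 50, against 24.1% of 675 genes. None of the 3 genes was lost in AhCre crypts: Tbx4 had 16.3 in AhCre KO and 15.6 in AhCre WT crypts, and Sox14 and Sox18 had no peak in either AhCre list.

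The scores of the 34 members that kept RING1B were lower in Villin KO crypts, with a median of 34.0 in KO and 66.2 in WT crypts. KO was higher at 2 of the 34, Foxf1 and Sox7, against 20.9% of all genes with RING1B in both Villin lists, and the median log2 ratio was -0.61, against -0.38 over all 1412 such genes. Of the 257 genes with both peaks and a WT score of 50 or more, KO was higher at 2.33%, and of the 21 members among them at none. Foxf1, a factor of gut mesenchyme, had 31.9 in Villin KO and 17.1 in Villin WT crypts. The 32 members with RING1B in all 4 crypt lists included 17 with a lower KO score in both lines, 13 with a higher KO score in AhCre crypts and a lower one in Villin crypts, and 1, Sox7, the other way round. Foxf1 alone had a higher KO score in both lines, and in AhCre crypts its KO and WT peaks lay at different places of the gene and did not overlap (13.3 in KO and 12.8 in WT crypts).

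**Figure D2:**
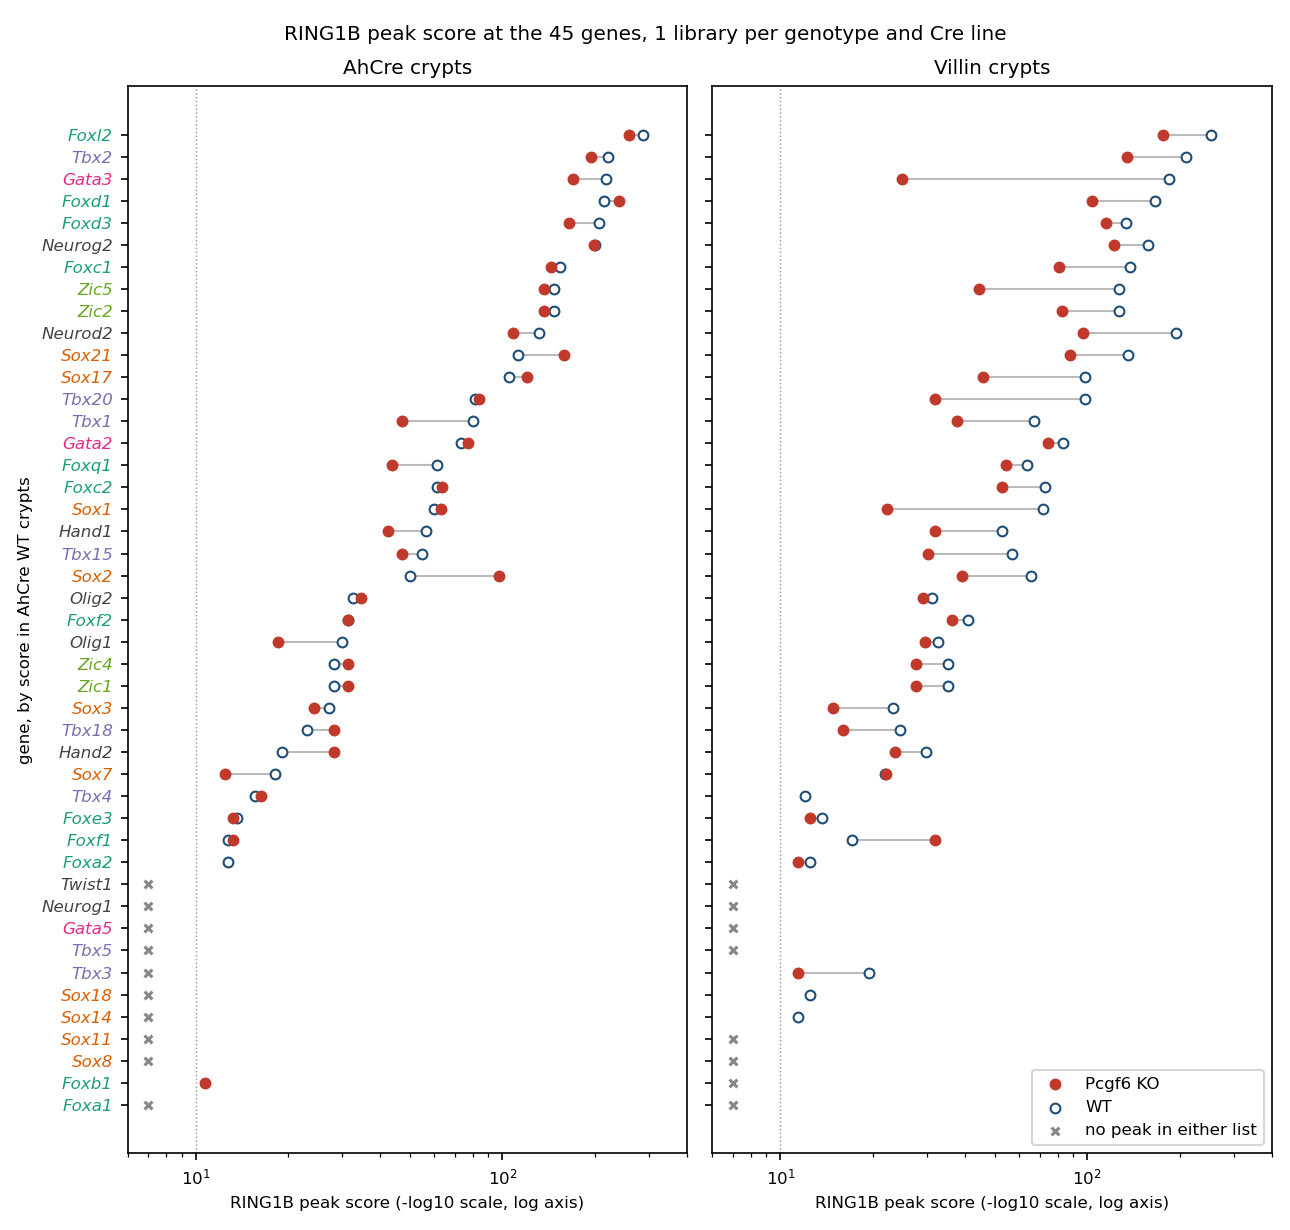
RING1B score (log axis) of each of the 45 genes in AhCre crypts (left) and Villin crypts (right), with filled points for Pcgf6 KO, open points for WT and crosses for genes with no peak in either list; gene names are coloured by family and sorted by the AhCre WT score, and the dotted line is the lowest score reported. Points of KO and WT lie close together in AhCre crypts, and KO lies left of WT at 32 of 34 genes in Villin crypts.

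At some members a long WT peak was called in pieces in KO crypts. The strongest WT peak met 2 or more KO peaks at 12 of 34 members in Villin crypts, against 8.14% of all genes with both peaks. In AhCre crypts it did so at 4 of 33, against 8.06%. The strongest Villin WT peak had a median width of 5169 bp at members and 841 bp over all genes with a peak. No share at matched width was made. The 12 were Foxc1, Foxd3, Foxf2, Sox1, Tbx1, Tbx15, Tbx18, Tbx20, Gata3, Zic2, Zic5 and Olig2. The Villin KO score of such a gene can be that of 1 piece. Gata3, the T-cell lineage GATA factor, had a RING1B window score of 25.0 in Villin KO and 184 in Villin WT crypts, with rank 3 from the lowest ratio among 1412 genes. In KO crypts the locus held peaks of 10331 bp (score 88.3) and 4107 bp (25.0), of which only the shorter came within 1 kb of the gene end, and in WT crypts the same stretch was 1 peak of 15529 bp (chr2:9875815-9891343). Zic2 and Zic5, neighbouring genes of neural and cerebellar development, had peaks of 10005 bp at Zic2 (82.9) and 10635 bp at Zic5 (44.4) in Villin KO crypts, and shared 1 peak of 21559 bp with a score of 127 in Villin WT crypts. In AhCre crypts that domain was whole, at 21360 bp in KO and 21570 bp in WT crypts. The strongest RING1B peak near Zic2 lay outside the window, with 529 in AhCre KO and 579 in AhCre WT crypts and 236 in Villin KO and 379 in Villin WT crypts.

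By length, the members kept more of their RING1B than the lists as a whole. Within 10 kb of the genes, RING1B peaks covered 306012 bp in AhCre KO and 326770 bp in AhCre WT crypts, counting a base shared by neighbouring members once, or 93.6% of the WT length, against 74.2% for the whole lists. In Villin crypts they covered 262583 bp in KO and 347064 bp in WT, 75.7%, against 62.9% for the whole lists. KO was the shorter at 26 members and the longer at 13 in AhCre crypts, and the shorter at 36 and the longer at 4 in Villin crypts. The members started from stronger peaks, and the lengths were not matched for score. Among genes with RING1B in AhCre WT crypts, the median score was 60.7 at members and 16.3 over all genes. In Villin WT crypts it was 63.6 at members and 14.8 over all genes.

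H2AK119ub1 in AhCre crypts was lost at none of the 37 members that had it in WT crypts, where 12.8% of all such genes lost it. Foxb1, Neurog1, Sox14 and Sox3 gained a peak in KO crypts, with scores of 17.0, 15.2, 11.4 and 10.7, and this was 4 of the 8 members without a WT peak (4.26% of all genes without a WT peak). Neurog1 is a proneural bHLH factor and Sox3 a neural Sox factor on the X chromosome. The KO score was higher at 27 of 37 members, against 61.9% of all genes with both peaks, and the median log2 ratio was 0.23 for members and 0.14 for all 3001 genes. Zic5 had 77.2 in KO and 35.8 in WT crypts, in a KO peak of 27337 bp that it shared with Zic2. Sox11, a factor of newborn neurons, went the other way, with 11.6 in KO and 16.5 in WT crypts.

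H2AK119ub1 in Villin crypts was lost at 3 of 35 members, against 29.3% of all genes with a WT peak. Those were Foxb1 (WT score 11.2) and the neighbours Zic1 and Zic4, which share 1 WT peak with a score of 14.8 and so count as 1 site. Sox11 and Tbx4 gained a peak, with KO scores of 12.4 and 10.0 (1.81% of all genes without a WT peak gained one). Each of these is a weak peak: no member with a WT score of 20 or more lost H2AK119ub1 in either line, of 30 in AhCre and 22 in Villin crypts. Among all genes from 20 to below 50, 0.287% of 1392 lost it in AhCre and 3.84% of 521 in Villin crypts. With so few members, a count of 0 is near these shares. The KO score was higher at 11 of 32 members, against 38.9% of all genes with both peaks, with a median log2 ratio of -0.22 for members and -0.11 for all 1552 genes.

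Both lines together left 32 members with H2AK119ub1 in all 4 crypt lists (6.85% of all genes) and 32 with RING1B in all 4 (3.56%). Foxa1, Tbx5, Gata5 and Twist1 had neither RING1B nor H2AK119ub1 in the window in any crypt list; Tbx5 and Twist1 act in heart, limb and mesenchyme. Sox8, Sox11 and Neurog1 also lacked RING1B in all 4 lists, while Sox8 kept H2AK119ub1 in each: 27.0 in AhCre KO and 27.2 in AhCre WT, 12.4 in Villin KO and 11.6 in Villin WT crypts. No member lost or gained either mark in both lines. Over all 21887 genes, 271 lost RING1B in both, where 1693 had a WT peak in AhCre and 3112 in Villin crypts. H2AK119ub1 was lost in both at 37 genes, where 3511 had a WT peak in AhCre and 2268 in Villin crypts. Gains in both lines were seen at 11 genes for RING1B and 46 for H2AK119ub1. The H2AK119ub1 score was higher in KO crypts of both lines at 8 members, Foxf1, Sox1, Sox2, Sox21, Tbx1, Tbx3, Zic2 and Olig2, lower in both at 6, and split between the lines at 18, of which 15 were higher in AhCre KO and 3 in Villin KO crypts.

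**Figure D3:**
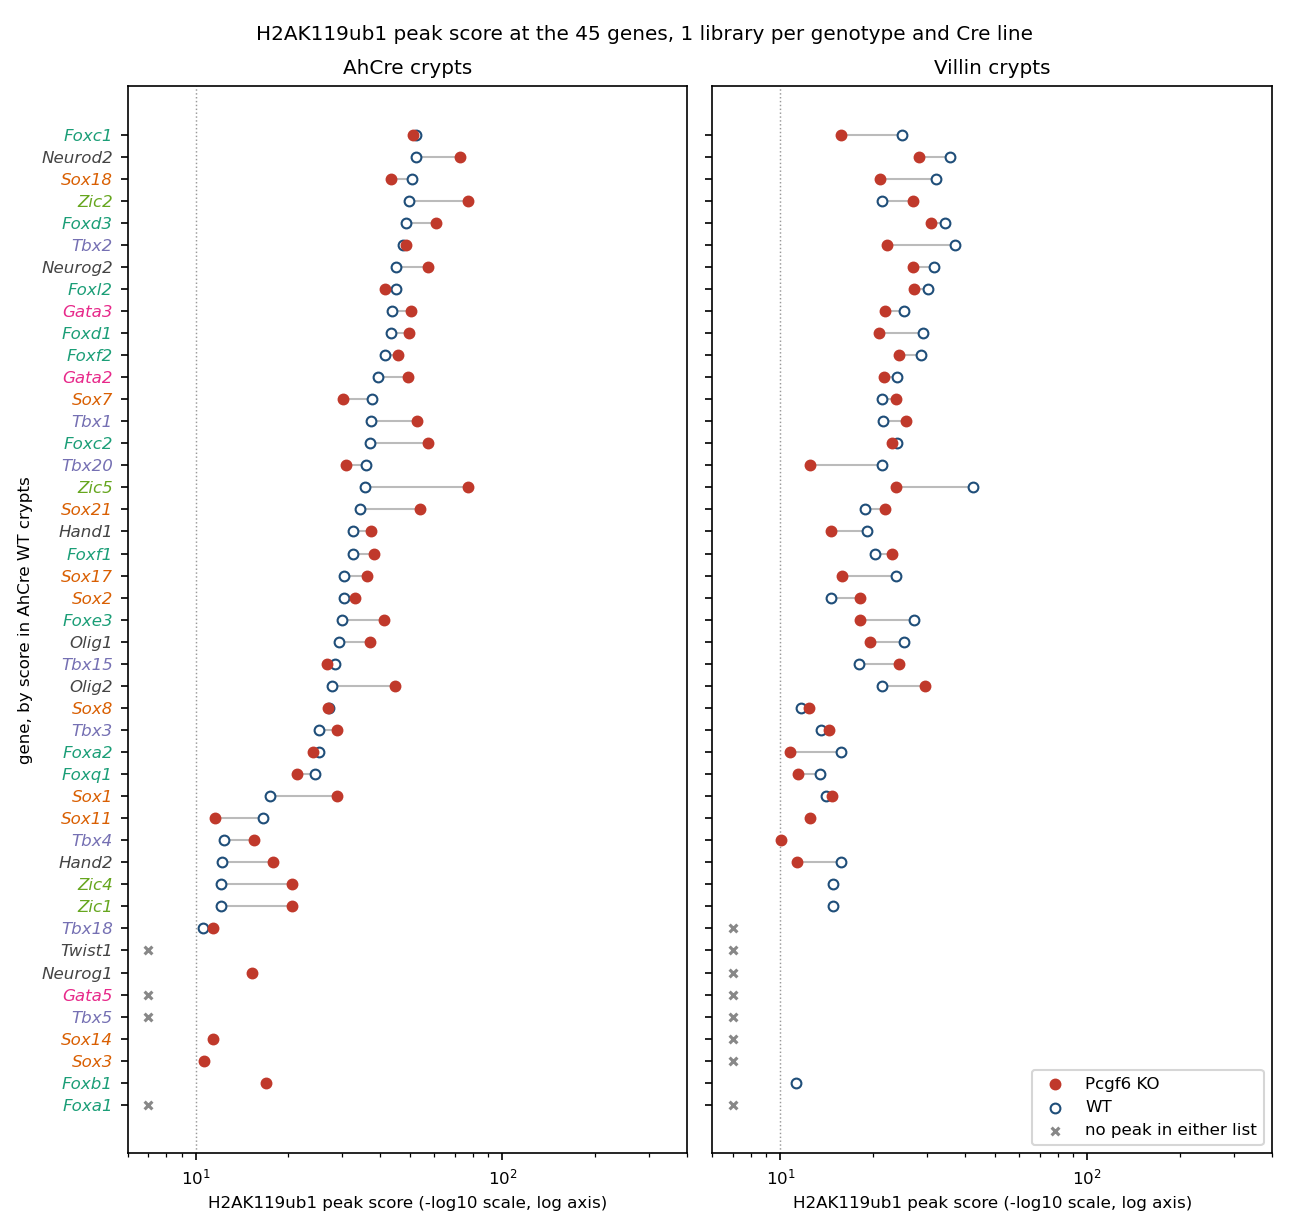
H2AK119ub1 score (log axis) of each of the 45 genes in AhCre crypts (left) and Villin crypts (right), drawn as filled points for Pcgf6 KO, open points for WT and crosses for no peak in either list, with genes sorted by the AhCre WT score. KO lies right of WT at 27 of 37 genes in AhCre crypts and at 11 of 32 in Villin crypts.

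RING1B and H2AK119ub1 sat at nearly the same members. In AhCre WT crypts, 33 of the 34 members with RING1B also had H2AK119ub1 (69.2% of all genes with RING1B), and 33 of the 37 with H2AK119ub1 had RING1B (33.4% of all genes with H2AK119ub1). In Villin WT crypts 33 of 37 members with RING1B had H2AK119ub1 (41.1% of all genes), and 33 of 35 the reverse (56.4%). Sox3 had RING1B without H2AK119ub1 in both WT lists, at 27.2 in AhCre and 23.2 in Villin crypts. PCGF6 lay at 9 members in AhCre WT crypts, of which 6 had RING1B (12.1% of all genes with PCGF6); Foxa1, Tbx3 and Gata5 were the other 3, and the Gata5 window shown above, with its E-box, had a PCGF6 peak in WT crypts and no RING1B peak in any crypt list.

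The order of members by RING1B score had a Spearman rho of 0.80 between Villin KO and AhCre KO crypts over 32 members, 0.97 between Villin WT and AhCre WT crypts over 34, 0.96 between AhCre KO and AhCre WT crypts over 33, and 0.84 between Villin KO and Villin WT crypts over 34. RING1B and H2AK119ub1 scores had a rho of 0.74 in AhCre WT and 0.49 in Villin WT crypts, each over 33 members. The members of a pair share their library and some share a peak, so these describe the lists only. The highest RING1B scores in AhCre WT crypts were those of Foxl2, an ovarian forkhead factor, Tbx2, a T-box repressor, Gata3, Foxd1, of the kidney stroma, and Foxd3, of the neural crest.

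By family, the forkhead genes ran from the highest RING1B score of the members to none. Foxl2 had RING1B scores of 258 in AhCre KO and 288 in AhCre WT crypts, and 177 in Villin KO and 253 in Villin WT crypts. Foxd1 had 239 in AhCre KO and 214 in AhCre WT crypts, and 104 in Villin KO and 166 in Villin WT crypts. Foxc1, a factor of mesoderm and eye, had 144 in AhCre KO and 154 in AhCre WT crypts, and 80.9 in Villin KO and 138 in Villin WT crypts. At the weak end, the lens factor Foxe3 had 13.3 in AhCre KO, 13.6 in AhCre WT, 12.5 in Villin KO and 13.6 in Villin WT crypts, and Foxa2 had none in AhCre KO, 12.8 in AhCre WT, 11.4 in Villin KO and 12.5 in Villin WT crypts. Foxe3 nonetheless had H2AK119ub1 scores of 41.2 in AhCre KO and 29.9 in AhCre WT crypts. Foxf2, the mesenchymal neighbour of Foxq1 and Foxc1 on chromosome 13, had RING1B at 31.4 in AhCre KO and 31.4 in AhCre WT crypts. Foxc2, of mesoderm and lymphatic vessels, had 63.7 in AhCre KO and 61.3 in AhCre WT crypts, and 52.9 in Villin KO and 72.7 in Villin WT crypts.

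Among the Sox genes, Sox17, a factor of endoderm and vessels, had RING1B at 121 in AhCre KO and 105 in AhCre WT crypts, and 45.7 in Villin KO and 98.3 in Villin WT crypts. Sox1, a neural Sox factor, had 62.8 in AhCre KO and 60.1 in AhCre WT crypts. It had 22.3 in Villin KO and 71.6 in Villin WT crypts, where its WT peak met 2 or more KO peaks. Of the related vascular genes, Sox7 had RING1B at 12.4 in AhCre KO and 18.2 in AhCre WT crypts, and Sox18 had none in 3 of the 4 crypt lists. Yet Sox18 had H2AK119ub1 at 43.4 in AhCre KO and 50.7 in AhCre WT crypts, in peaks of 9707 bp in KO and 9264 bp in WT crypts.

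T-box genes ranged from no RING1B in the window to rank 2 among the members, at Tbx2 in both WT lists. Tbx2 had RING1B at 194 in AhCre KO and 221 in AhCre WT crypts, and 135 in Villin KO and 211 in Villin WT crypts. Tbx20, a cardiac factor, had 83.6 in AhCre KO and 81.6 in AhCre WT crypts. It had 31.9 in Villin KO and 98.4 in Villin WT crypts, where its WT peak also met 2 or more KO peaks. Tbx15, of the skeleton, had 47.2 in AhCre KO and 54.8 in AhCre WT crypts, and Tbx18, of the epicardium and ureter, 28.3 in AhCre KO and 23.0 in AhCre WT crypts. At Tbx3, a relative of Tbx2, the Villin KO peak (11.4) lay at the other gene end from the WT peak (19.5), so the gene kept RING1B by the window only; in AhCre KO crypts a peak with a score of 10.1 lay inside the gene, 1012 bp from its end, and was not counted. Tbx5 had no peak within 1 kb of its ends in any crypt list, but a RING1B peak lay inside this long gene, with a score of 29.3 in AhCre KO and 39.3 in AhCre WT crypts.

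Among the GATA and Zic genes, Gata2, a factor of blood stem cells, had RING1B at 77.0 in AhCre KO and 73.1 in AhCre WT crypts, and 74.7 in Villin KO and 83.2 in Villin WT crypts. Gata3 had 169 in AhCre KO and 217 in AhCre WT crypts, without the broken peak of the Villin KO list. Zic1 and Zic4, of the cerebellum, had 31.4 in AhCre KO and 28.2 in AhCre WT crypts, and 27.7 in Villin KO and 35.2 in Villin WT crypts.

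Among the bHLH genes, the proneural factor Neurog2 had RING1B at 198 in AhCre KO and 200.4 in AhCre WT crypts, and 122 in Villin KO and 158 in Villin WT crypts. Neurod2, of cortical neurons, had 109 in AhCre KO and 132 in AhCre WT crypts, and 96.6 in Villin KO and 194 in Villin WT crypts. Hand1, of heart and placenta, had 42.4 in AhCre KO and 56.2 in AhCre WT crypts, and 31.9 in Villin KO and 52.8 in Villin WT crypts. Olig2, the partner gene of Olig1, had 34.6 in AhCre KO and 32.5 in AhCre WT crypts, and 29.1 in Villin KO and 31.1 in Villin WT crypts. Twist1 had no peak in the window in any crypt list, and Neurog1, beside its H2AK119ub1 peak in AhCre KO crypts, had no other in the window.

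Set against WT ESC, a larger share of the members than of all genes also had RING1B in crypts. Of 42 members with RING1B in ESC, 10 had none in AhCre WT crypts (71.9% of all genes with RING1B in ESC), namely Foxa1, Foxb1, Sox8, Sox11, Sox14, Sox18, Tbx5, Gata5, Neurog1 and Twist1, and 8 had none in Villin WT crypts (57.4%). Foxb1 had an ESC score of 504, Neurog1 404 and Gata5 301, against a median of 300.4 over the 42 members. The median over all genes with RING1B in ESC was 39.1, and no share at matched score was made. RING1B in crypts without ESC was found at Sox2 and Zic5 in AhCre WT crypts (35.3% of all genes with RING1B there), and also at Tbx3 in Villin WT crypts (46.5%). Sox2 had 50.03 in AhCre WT crypts, in a peak of 6941 bp over the gene, and in ESC its nearest RING1B peak was 7189 bp away. Zic5 had 147 in AhCre WT crypts, and in ESC a peak of 18.9 lay inside the gene, 1376 bp from its end and so outside the window.

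Scores in ESC and crypts showed no shared order, with a rho of -0.08 over the 32 members with RING1B in AhCre WT crypts and ESC; libraries of unknown depth set both. Zic1 and Zic4 had 28.2 in AhCre WT crypts and shared the highest score of the members in ESC, 690, and Zic2 had 147 in AhCre WT crypts and 66.7 in ESC. Zic2, Foxd3 and Gata3 were the members with a higher score in AhCre WT crypts than in ESC: Foxd3 had 206 in crypts and 108 in ESC, and Gata3 217 in crypts and 113 in ESC.

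PCGF6 was at most of these genes in ESC and at few in crypts. It was at 27 members in ESC and not in AhCre WT crypts, of 33 with it in ESC (30.3% of all genes with PCGF6 in ESC), and at Foxa1, Tbx3 and Gata5 in crypts and not in ESC (60.4% of all genes with PCGF6 in crypts). Near Foxa1, an ESC peak of PCGF6 with a score of 20.8 lay 1563 bp from a gene end and so outside the window. Foxa2, Foxq1, Sox21, Tbx1, Tbx2 and Olig1 had PCGF6 in both. Olig1 had 17.7 in crypts and 49.5 in ESC, the highest ESC score of the members, and Foxq1 had 61.3 in crypts and 18.2 in ESC. All 33 members with PCGF6 in ESC also had RING1B there (49.8% of all genes with PCGF6 in ESC).

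**Figure D4:**
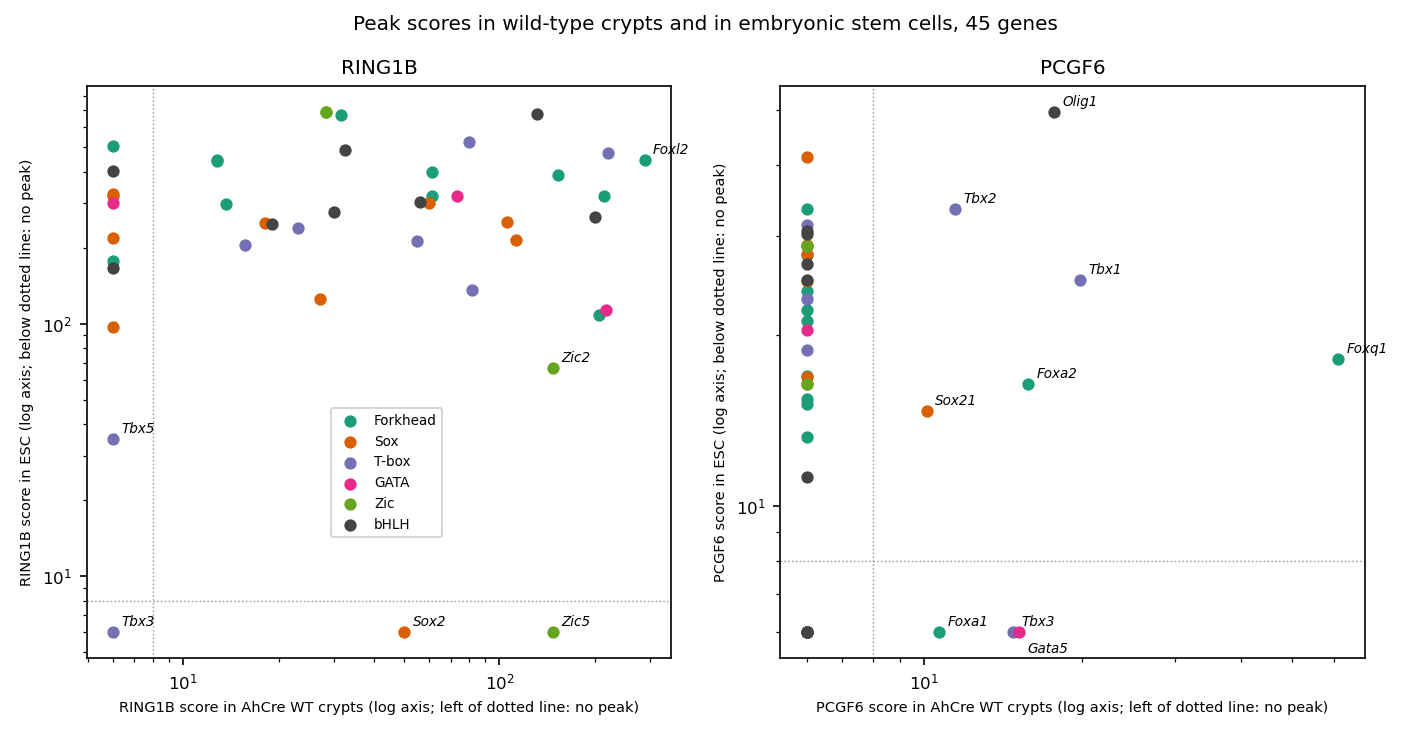
Scores in AhCre WT crypts (x axis) and in WT ESC (y axis), both log axes, for RING1B (left) and PCGF6 (right), 1 point for each of the 45 genes coloured by family; points beyond a dotted line had no peak in that list. For RING1B, 32 genes have a peak in both and Sox2 and Zic5 in crypts only, and for PCGF6, 27 genes lie on the left edge with a peak in ESC only.

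CTCF and the cohesin subunit RAD21 touched few members. CTCF was lost at 3 of 12 members in Villin KO crypts (12% of all genes with a WT peak). None gained it (1.26% of all genes without a WT peak did). The 3 were Foxl2 (WT score 10.7), Sox21 (10.7) and Sox11 (19.5), the only members with a WT score from 10 to below 20. In that band, 58.3% of 980 genes lost CTCF. Gata3 had a CTCF peak of 42.9 in KO crypts that began 1169 bp from the gene, and the WT peak it overlaps, at 60.9, reached into the window. RAD21 was lost at 3 of 8 members, Gata5 (10.6), Sox11 (12.8) and Tbx2 (15.0), with 41.1% lost among all genes with a WT peak. None gained it (1.62% of all genes without a WT peak did). Of members with a WT score from 10 to below 20, 3 of 5 lost RAD21, against 70.7% of 2403 genes. Sox11 thus lost both CTCF and RAD21.

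Foxq1 had the lowest RAD21 ratio of all 2768 genes with RAD21 in both lists. Its RAD21 score was 11.0 in Villin KO and 118 in Villin WT crypts, a log2 ratio of -3.42, while its CTCF score was 265 in KO and 201 in WT crypts. The KO RAD21 peak (chr13:31557652-31558697) stopped short of the KO CTCF peak (chr13:31559639-31560433), and no other KO RAD21 peak lay within 10 kb of the gene, whereas the WT RAD21 peak (chr13:31557435-31560268) overlapped the WT CTCF peak inside the gene (chr13:31559406-31560422). PCGF6 in AhCre crypts also narrowed at Foxq1, as given above, and RING1B had 54.4 in Villin KO and 63.6 in Villin WT crypts. Foxf2, its neighbour, had RAD21 at 34.8 in KO and 16.8 in WT crypts.

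Around the transcription starts of the 30 genes with a RefSeq promoter, RING1B formed a broad plateau. Peaks met 17 of 34 promoter windows in AhCre KO crypts (2.38% of all 32851 windows), 21 in AhCre WT crypts (4.19%), 16 in Villin KO crypts (3.66%), 18 in Villin WT crypts (7.56%) and 32 in ESC (11%). At the start itself, 16 of 30 genes were covered in AhCre KO and 19 in AhCre WT crypts, 14 in Villin KO and 17 in Villin WT crypts, and 27 in ESC. At 5 kb along the gene, 8 were covered in AhCre KO and 10 in AhCre WT crypts, and 9 in Villin KO and 13 in Villin WT crypts. H2AK119ub1 covered 19 of 30 starts in AhCre KO crypts and 14 in AhCre WT crypts, and at 500 bp into the gene 20 genes were covered in AhCre KO and 17 in AhCre WT crypts. Away from the start the AhCre lists were closer. At 500 bp before it, 21 genes were covered in KO and 20 in WT crypts, and at 2000 bp into the gene 21 in each. In Villin crypts H2AK119ub1 covered 11 starts in KO and 13 in WT. At 500 bp before the start it covered 12 genes in Villin KO and 19 in Villin WT crypts. At 500 bp into the gene it covered 12 in KO and 13 in WT, and at 2500 bp 13 in KO and 19 in WT. By promoter window, H2AK119ub1 met 21 of 34 in AhCre KO crypts (7.8% of all windows) and 17 in AhCre WT crypts (6.73%). In Villin crypts it met 15 of 34 in KO (3.18%) and 16 in WT (4.03%). PCGF6 covered none of the starts in AhCre KO crypts, 3 in AhCre WT crypts and 14 in ESC. By promoter window, it met 0 of 34 in AhCre KO crypts (7.79% of all windows). It met 3 in AhCre WT crypts (26%) and 19 in ESC (14%).

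**Figure D5:**
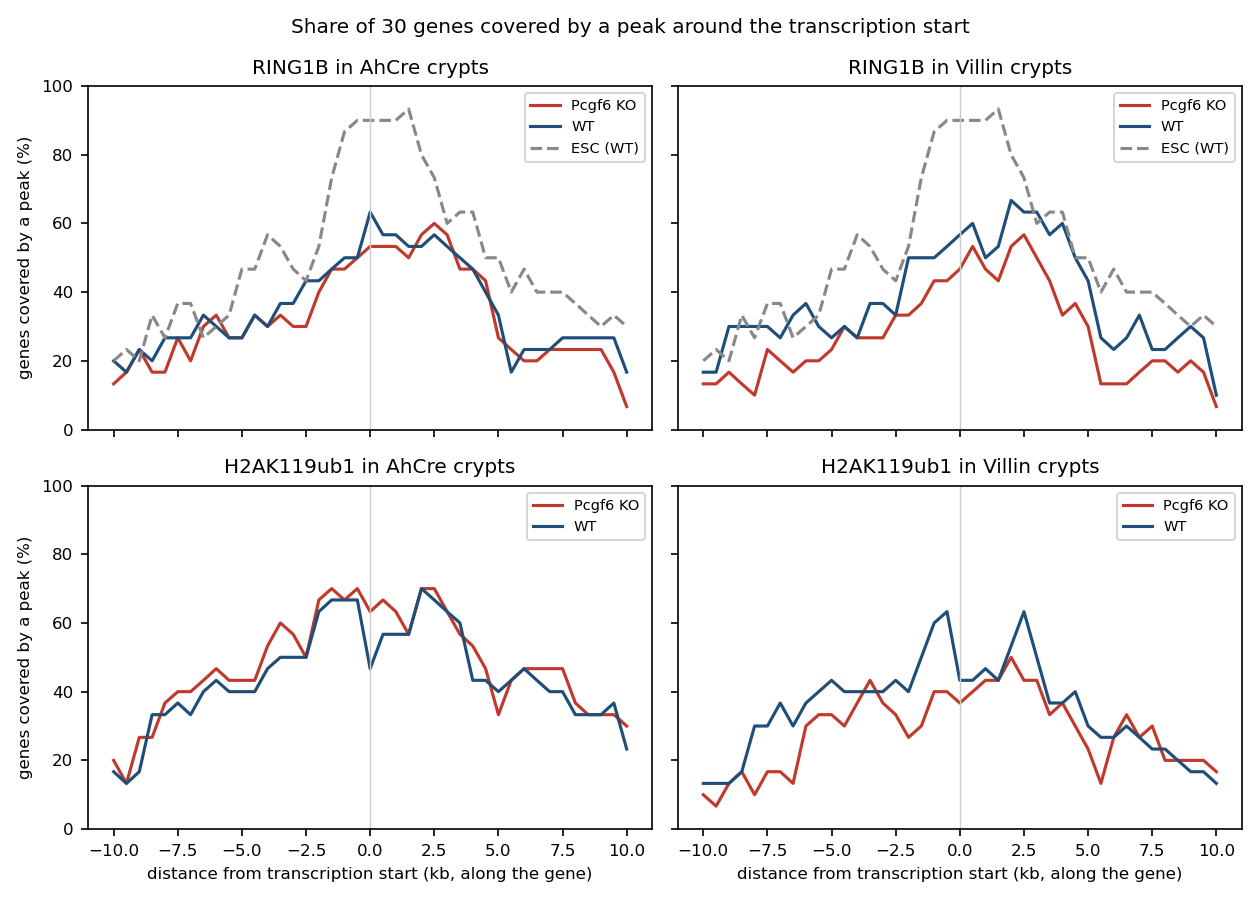
Share of 30 genes covered by a peak (y axis, percent) by distance from the transcription start (x axis, kb, positive into the gene) for RING1B (top) and H2AK119ub1 (bottom) in AhCre crypts (left) and Villin crypts (right), with Pcgf6 KO in red, WT in blue and, for RING1B, ESC as a dashed line. RING1B covers 14 to 19 of 30 starts in the crypt lists and 27 in ESC.

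The members were set beside 59 other genes of the same families and 39 Hox genes. RING1B was in all 4 crypt lists at 32 of 45 members, 14 of 59 other family genes and 33 of 39 Hox genes, and H2AK119ub1 at 32 members, 15 other family genes and 36 Hox genes. In Villin crypts, RING1B was lower in KO at all 16 other family genes and at 32 of 33 Hox genes with both peaks. The 45 genes were listed with earlier results of these data known, so their larger share of targets is a description.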

How the data were processed

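The deposited files analysed here are 16 peak lists on mm10, 1 for each antibody, crypt line or cell and genotype; 6 input samples have no list here. Each peak carries a −log10 score that the authors deposited, and whether it stands for a p or a q value is not given in the sources used here. Bowtie 1.2.2 and 1.1.2 and MACS2 2.1.1 are named per the submitters' processing notes, with the builds mm10, dm6 and hg38. Lists were called on separate libraries, depth is not known from them, and the scores share no scale between lists.

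Peaks were read 1-based on chromosomes 1 to 19, X and Y, and compared in Python 3.11.15 with numpy 2.4.6 and pandas 2.3.3; figures used matplotlib 3.10.9. A gene had a peak when 1 lay within 1 kb of either gene end in RefSeq GRCm38.p6. A peak was lost when a gene had a WT and no KO peak in the window and no such WT peak overlapped a KO peak by 1 bp, and gained in the mirror case. Crypts and ESC were compared by the window alone. The calling of lost peaks was tested on lists simulated by removing peaks from WT lists, with no peak shifted or split. The overlap step was checked against bedtools 2.31.1. The 45 members were taken by name and all are accounted for; members in the top 5 by score or with a changed status were named first, and other genes only where they share a peak or serve as a check. The members and lists were chosen with earlier results of these data known. With 1 library a group, no test was made.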

Additional observations from a re-analysis of the deposited data

Results flagged for a closer look

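Foxb1, a forebrain forkhead gene, moved in opposite directions in the 2 Cre lines: H2AK119ub1 was gained in AhCre crypts, with a score of 17.0 in KO crypts and no WT peak, and lost in Villin crypts, with no KO peak and a score of 11.2 in WT crypts. The number of members with H2AK119ub1, KO minus WT, was 4 in AhCre crypts (41 in KO and 37 in WT) and -1 in Villin crypts (34 in KO and 35 in WT). Each line had 1 library per genotype, and neither difference was tested.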

How the results depend on the processing

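With only scores of 20 or more kept, PCGF6 was lost at 1 member in place of 8, H2AK119ub1 in Villin crypts at 5 in place of 3 and CTCF at 1 in place of 3, and RING1B was in ESC and not in AhCre WT crypts at 16 members in place of 10. With a 5 kb window, PCGF6 was lost at 13 members and RING1B in AhCre crypts at 0 in place of 1. With both lists cut to equal length by score, PCGF6 was lost at 0 members, RING1B at 0 in AhCre crypts and at 0 in Villin crypts in place of 3, CTCF at 1 and RAD21 at 1 in place of 3. The 8 lost PCGF6 peaks had WT scores of 10.1 to 19.8, so the cut at 20 removed them all. The 1 member lost at that cut was Foxq1, with 61.3 in WT and 12.7 in KO crypts. Equal length cut the PCGF6 WT list from 17163 to 4779 peaks, which left out the same 8. A count of 0 there thus followed from the cut. At the cut at 20, the 5 members counted as losing H2AK119ub1 in Villin crypts were Foxc1, Foxe3, Sox17, Tbx20 and Olig1. Their WT scores were 21.4 to 27.3 and their KO scores 12.4 to 19.6, so each had a KO peak. The CTCF member was Olig2, with 21.7 in WT and 16.6 in KO crypts. With the 5 kb window, the RING1B peak of AhCre KO crypts 2300 bp from Foxa2 was counted. The cause of the other moves was not tested. The other 39 recomputed main counts stayed within 1.5 times of those reported. At the cut at 20, a like count did not mean the same members. The RING1B loss in AhCre crypts was then Olig1 in place of Foxa2. In Villin crypts the RING1B losses were Sox3 and Tbx18 in place of Sox14, Sox18 and Tbx4. The RAD21 losses were Foxq1 and Tbx1 in place of Gata5, Sox11 and Tbx2. Olig1, Sox3, Tbx18, Foxq1 and Tbx1 each had a KO peak with a score below 20. No paired analysis was possible because each group holds 1 library. In the main counts, losses at the members are of weak peaks near the lowest score reported. Read depth, which sets whether such a peak is called, is not known from the lists.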
